A study of Mus musculus with 2 samples.

Results

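Genes of fat cells were read in 2 cultures of mouse cartilage, cells of the superficial zone (SFZ) of joint cartilage and costal chondrocytes (CC). The genes were *Fabp4*, *Fabp5*, *Pparg*, *Cebpa*, *Lpl*, *Cd36*, *Plin1*, *Plin2*, *Adipoq* and *Cfd*, and every probe set annotated to one of them alone was taken. They were chosen by earlier results on these same arrays, in which adipocyte genes had higher signals in CC. Their direction is therefore a description and not a finding, and no test was run on it. Of these 10 genes, 8 were measured by 15 probe sets, out of 18193 genes and 45037 probe sets named or counted on the arrays. No signal is given for *Plin1* and *Cfd*, because the annotation used names no probe set for them.

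SFZ cells came from articular cartilage and CC from the ribs of ICR mice at postnatal day 4, and no genetic change or treatment is named for either. Both were primary cells grown in DMEM with 10% FBS. CC were released from rib tissue by collagenase and cultured as collected, with no sort named. Each array received cRNA made from 100 ng of total RNA. There was 1 array per cell type, and the labels do not say how many mice stand behind an array. The difference between arrays thus has no replicate check, and no p-value or replicate SD is given. Rib against limb, and cell type against culture, cannot be told apart in this design. Fewer cells of a type and less RNA per cell cannot be told apart either.

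A fat cell stores triglyceride in a lipid droplet and releases it on demand. Its formation is driven by the nuclear receptor PPARγ (*Pparg*) and the bZIP factor C/EBPα (*Cebpa*), which sustain each other. Both switch on genes of fatty acid uptake, carriage and storage, and of secreted adipokines. Several of these genes also serve other cells. *Fabp4* and *Cd36* are used by macrophages and capillary endothelium, *Lpl* and *Cd36* by muscle, *Cebpa* by myeloid cells, and *Plin2* and *Fabp5* by many cell types. Adiponectin (*Adipoq*) is made chiefly by fat cells.

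The values are deposited MAS5 signals, linear intensities of a probe set, which is a group of short oligonucleotides near the 3′ end of a transcript. A background level was set at the 95th percentile of 84 probe sets for smell, taste and pheromone receptors, 28.2 for SFZ cells and 26.2 for CC. A probe set counted as higher in CC where the CC signal was over 100 and the CC/SFZ ratio over 2. The study used the same thresholds, in the opposite direction, to pick SFZ genes. Where the SFZ signal was at or under background, the text gives "at least", against that level. On both arrays the defining cartilage genes were strong. *Col2a1*, the main cartilage collagen, was at 8251 in SFZ cells against 9074 in CC, and *Acan*, encoding aggrecan, at 7772 and 5588. Of 18 cartilage markers 0 were higher in CC, 5 were higher in SFZ cells and 13 passed in neither direction. Over all genes, 6.17% were higher in CC and 1.37% in SFZ cells. The 5 were the matrilin gene *Matn1*, at 9989 and 2692, the collagen gene *Col9a3*, at 7799 and 3668, *Snorc*, at 3818 and 1754, *Chad*, encoding chondroadherin, at 131 and 6.52, and the lubricin gene *Prg4*, a marker of SFZ cells, at 323 and 73.6. *Col9a3* passed on 1 of 3 probe sets.

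All 8 measured genes had a higher signal in CC, and each passed the thresholds on at least 1 probe set. For 4 of them, *Pparg*, *Cebpa*, *Cd36* and *Adipoq*, every SFZ signal lay at or under background. The promoters of these 4 genes are shown for that reason, as the 250 bases before a RefSeq start site on GRCm38.p6, written 5′ to 3′ along the gene. RefSeq windows were matched for 7 of the 10 genes. Capitals mark matches, on either strand, to 6 motifs. These were the C/EBP motif TTGCNNAA, the CCAAT box, the E-box CACGTG, the TATA box TATAAA, the nuclear receptor hexamer AGGTCA, and the PPAR direct repeat. The direct repeat is 2 copies of that hexamer with 1 base between them, so each match to it also holds the hexamer.

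The *Pparg* window shown is 1 of 3 and was picked because it alone of them held C/EBP matches. It lies at chr6:115421816-115422065 on the plus strand. The *Cebpa* window is chr7:35119043-35119292 (plus), that of *Cd36* is chr5:17835897-17836146 (minus) and that of *Adipoq* is chr16:23146286-23146535 (plus).
Pparg: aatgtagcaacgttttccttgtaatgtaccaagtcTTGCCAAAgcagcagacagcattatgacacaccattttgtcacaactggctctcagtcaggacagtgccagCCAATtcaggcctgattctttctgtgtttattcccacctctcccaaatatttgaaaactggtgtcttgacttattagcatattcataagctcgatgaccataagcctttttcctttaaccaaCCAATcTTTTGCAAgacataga
Cebpa: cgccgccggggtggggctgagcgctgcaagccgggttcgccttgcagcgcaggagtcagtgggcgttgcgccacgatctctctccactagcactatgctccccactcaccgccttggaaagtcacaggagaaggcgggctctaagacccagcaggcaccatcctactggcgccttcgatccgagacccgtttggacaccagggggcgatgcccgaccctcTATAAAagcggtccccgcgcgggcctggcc
Cd36: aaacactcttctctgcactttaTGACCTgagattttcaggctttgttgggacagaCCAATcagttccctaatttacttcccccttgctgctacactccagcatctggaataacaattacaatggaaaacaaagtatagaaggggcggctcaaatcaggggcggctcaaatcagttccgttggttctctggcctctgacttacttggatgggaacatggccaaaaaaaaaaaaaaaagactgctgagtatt
Adipoq: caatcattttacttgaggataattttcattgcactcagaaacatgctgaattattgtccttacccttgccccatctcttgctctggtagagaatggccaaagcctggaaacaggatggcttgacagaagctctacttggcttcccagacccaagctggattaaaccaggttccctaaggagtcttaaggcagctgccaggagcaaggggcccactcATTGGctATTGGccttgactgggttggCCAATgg

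The *Pparg* window held 2 C/EBP matches, TTGCCAAA starting 215 bases and TTTTGCAA starting 16 bases before the start site. The other 2 *Pparg* windows held no C/EBP match. Both held a nuclear receptor hexamer, and 1 of them also a CCAAT box and a TATA box. The C/EBP motif was in 9.56% of 32851 promoter windows of the same length. The *Adipoq* window held 3 CCAAT boxes within its last 34 bases, and at least 1 CCAAT box was in 33.8% of windows. *Cebpa* had a TATA box starting 30 bases before its start, a match found in 12.4% of windows. *Cd36* had 1 CCAAT box and 1 nuclear receptor hexamer, TGACCT on this strand, which was in 14.02% of windows. The E-box was in 6.02% of windows and the direct repeat in 0.0335%, and neither was in the windows of the 7 genes. Thus the 4 windows shared no motif of the 6 among them all. A match describes letters only.

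**Figure D1:**
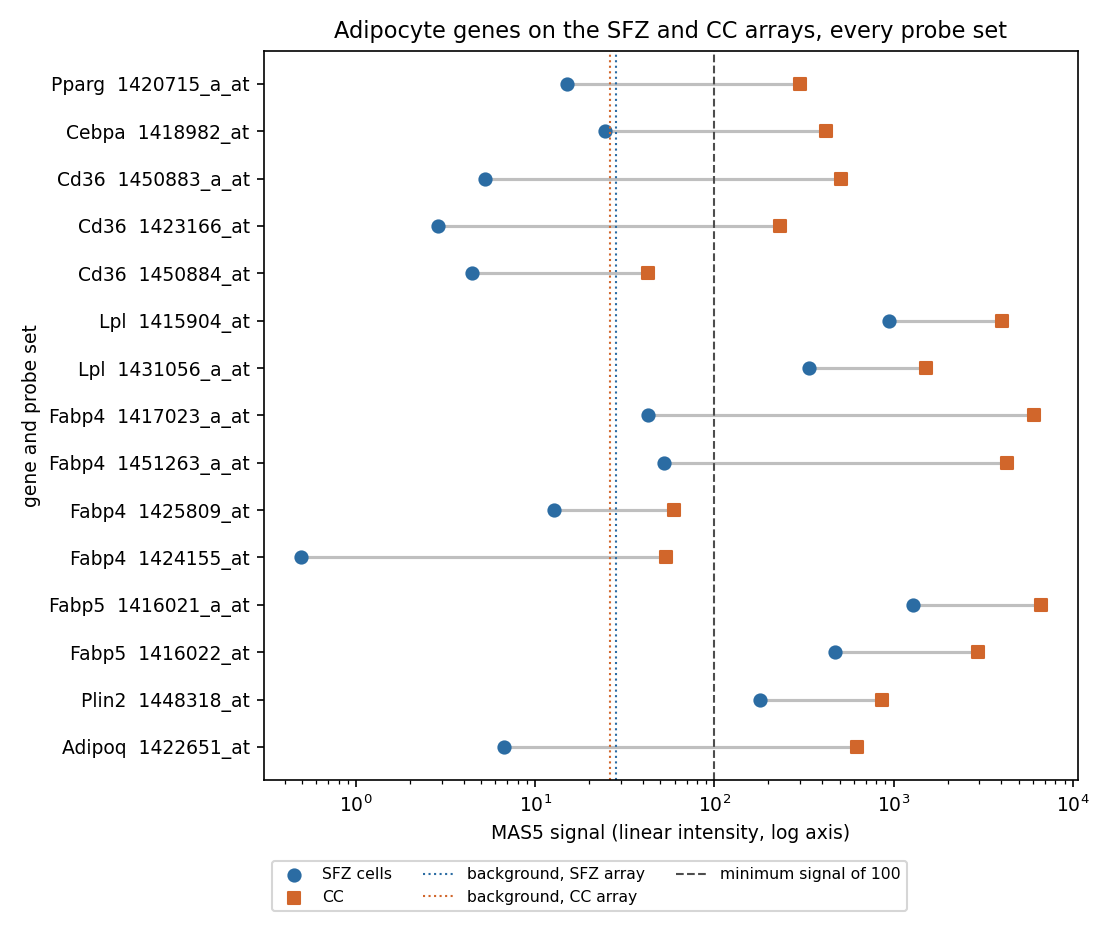
MAS5 signals of the 15 probe sets of adipocyte genes on a log axis, with 1 SFZ array (circles) and 1 CC array (squares). Dotted lines are the background levels of 28.2 (SFZ) and 26.2 (CC) and the dashed line is the minimum signal of 100. All 15 squares lie to the right of their circles, and 8 circles lie at or under background.

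Among the regulators, *Pparg* had a signal of 15.1 in SFZ cells against 301 in CC on its only probe set. It was at least 10.7-fold higher in CC. *Cebpa* was at 24.6 in SFZ cells against 418 in CC, and so at least 14.8-fold higher, also on 1 probe set. The SFZ signals of both regulators were within the range of receptor genes that cartilage does not use, while the CC signal of *Pparg*, the lower of the pair relative to background, was 11.5 times the background of that array. The *Pparg* probe set does not tell which of the 3 start sites was used.

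*Cd36*, which encodes a membrane transporter of long-chain fatty acids, was measured by 3 probe sets. Its SFZ signals were 5.27, 2.85 and 4.45, all under background. The CC signals of the same probe sets were 512, 232 and 42.8. The gene was at least 18.2-fold and at least 8.24-fold higher in CC on the first and second of these. The third was above background in CC but under the minimum, with a bound of 1.52. *Lpl*, the lipase that frees fatty acids from circulating lipoproteins, differed from *Cd36* in being well above background in SFZ cells too. It was at 942 in SFZ cells against 4009 in CC on one probe set and at 336 and 1514 on the other. These ratios of 4.25 and 4.50 lay close together.

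The cytosolic fatty acid carrier of fat cells, *Fabp4*, had the largest ratio of the 4 genes above background on both arrays. On its 2 bright probe sets it was at 42.7 in SFZ cells against 6039 in CC, a ratio of 141, and at 52.5 and 4312, a ratio of 82.1. Both SFZ signals were above background, by factors of 1.51 and 1.86 only, and the ratios moved to 57.2 and 37.6 with 64 added to every signal. The other probe sets of *Fabp4* were dim. One was at 12.7 in SFZ cells against 59.3 in CC, and the other at 0.494 and 53.7. With both SFZ signals under background, their bounds were 2.10 and 1.91, and neither reached the minimum in CC. Why the probe sets of 1 gene differ was not tested.

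*Fabp5*, the epidermal-type carrier, was strong in both cultures. It was at 1277 in SFZ cells against 6619 in CC, a ratio of 5.18, and at 469 and 2973 on the second probe set, a ratio of 6.35. *Fabp4* and *Fabp5* lie in one cluster of carrier genes on chromosome 3. Between them in the annotation are *Pmp2*, the carrier of peripheral myelin, and *Fabp9*, and on the far side of *Fabp4* lies *Fabp12*. These neighbours, picked by position, were under background on both arrays, with CC signals of 4.02, 3.001 and 22.8. The muscle and heart carrier *Fabp3* was at 116 in SFZ cells against 157 in CC, and did not pass.

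*Plin2*, which coats lipid droplets in many cell types, was at 180 in SFZ cells against 862 in CC, a ratio of 4.80. Its relative *Plin4* was at 44.1 and 120, a ratio of 2.73. *Plin3* was at 256 and 261 and did not pass, and *Plin5* was under background on both arrays. Of the adipokines, *Adipoq* was at 6.71 in SFZ cells against 623 in CC. It was at least 22.1-fold higher in CC, and its CC signal was 23.8 times the background level.

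The measured genes thus fell into 2 patterns. *Lpl*, *Fabp5* and *Plin2* were over 100 on both arrays, with ratios from 4.25 to 6.35. *Pparg*, *Cebpa*, *Cd36* and *Adipoq* were above background on the CC array alone. These 4 could be counted only through their CC signals. With 64 added to every signal, the ratios of the brightest probe sets of these 4 were 4.61, 5.44, 8.31 and 9.71. *Fabp4* stood between, just above background in SFZ cells and at 6039 in CC. The median log2 ratio of the 8 genes was 3.65, with signals raised to background and the brightest probe set standing for each gene. Over all 12466 genes above background on at least 1 array it was 0.18. Ranked by that ratio, *Fabp4* was 5th of these genes, *Adipoq* 37th, *Cd36* 43rd, *Cebpa* 54th, *Pparg* 89th, *Fabp5* 234th, *Plin2* 261st and *Lpl* 313th. The places of the 4 genes with bounds could be higher. Other ranked genes, such as *Myh3*, have bounds too, so any of the 8 places could also be lower.

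By the thresholds, 12 of the 15 probe sets were higher in CC and none was higher in SFZ cells. Over the whole array, 3.58% of probe sets were higher in CC and 0.779% in SFZ cells. Of probe sets with a CC signal over 100, 10.6% were higher in CC. All 12 probe sets of the listed genes with such a signal passed. Counted per gene, 6.17% of all genes were higher in CC and 1.37% in SFZ cells on at least 1 probe set. Because the genes were chosen for this contrast, nothing is read from the shares. Of the passing probe sets, a *Cd36* probe set had the lowest CC signal, at 232, and an *Lpl* probe set the lowest ratio, at 4.25. Neither was close to a threshold, and all 12 still passed at a signal over 200 or a ratio over 3. Of those that did not pass, the *Fabp4* probe set at 59.3 had the highest CC signal.

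**Figure D2:**
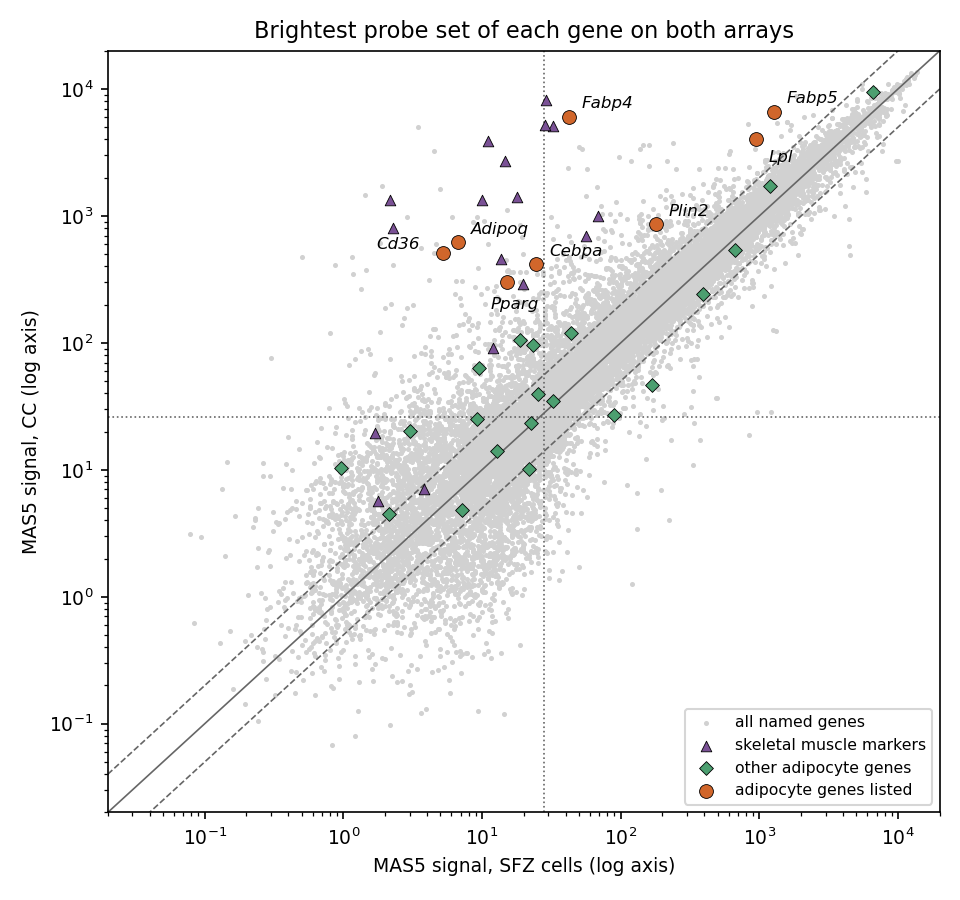
Brightest probe set of each of 18193 genes, with the SFZ signal on the x axis and the CC signal on the y axis, both log axes, 1 array each. Triangles are skeletal muscle markers and diamonds other adipocyte genes. The solid line is equality, dashed lines are ratios of 2, and dotted lines are the background levels. The listed genes lie above the upper dashed line, *Fabp4* at 42.7 and 6039, and other adipocyte genes lie on both sides of the equality line.

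Other genes of mature fat cells gave mixed values. Of 20 such genes measured besides the listed ones, 12 were above background on at least 1 array. Of the 20, 2 were higher in CC and 1 in SFZ cells, against 6.17% and 1.37% of all 18193 genes. The other 9 of the 12 passed in neither direction. *Gpd1*, which makes the glycerol backbone of triglyceride, was at 18.9 in SFZ cells against 106 in CC, at least 3.77-fold higher, on 1 of its 4 probe sets. *Plin4* was the other. *Adig*, encoding adipogenin, went the opposite way at 167 and 46.7. The median log2 ratio of the 12 genes was 0.50, against 3.65 for the listed genes and 0.18 for all genes. Leptin (*Lep*), the droplet protein gene *Cidec*, the glycerol channel gene *Aqp7*, *Pck1*, *Thrsp* and the lactate receptor gene *Hcar1* were under background on both arrays. The insulin-responsive glucose transporter gene *Slc2a4*, at 23.3 and 95.6, and resistin (*Retn*), at 9.49 and 63.0, had bounds of 3.39 and 2.23 but were under the minimum signal in CC. With no minimum signal, so that signals under background entered too, 10 genes of the list had a ratio over 2 on at least 1 probe set.

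Regulators around *Pparg* and *Cebpa* gave a mixed result. Of 20 factors known to act in fat cell formation, 4 were higher in CC, 1 was higher in SFZ cells and 15 passed in neither direction. Over all genes, 6.17% were higher in CC and 1.37% in SFZ cells. *Ebf1*, an early B-cell factor that also promotes fat cell formation, was at 44.1 in SFZ cells against 354 in CC, a ratio of 8.03, and passed on 4 of 5 probe sets. *Ebf2*, its paralog, was at 20.6 and 101, at least 3.60-fold higher, on 1 of 3 probe sets. *Cebpd*, which acts early in the cascade, was at 660 and 1956, a ratio of 2.96, on 1 of 2 probe sets. *Klf5* was at 246 and 576, a ratio of 2.34, on 1 of 3 probe sets. The early factor *Cebpb* was at 4378 and 3543 and did not pass, nor did *Rxra*, the partner of PPARγ, at 149 and 119. *Klf4* was the factor higher in SFZ cells, at 2689 and 1175. *Zfp423*, a marker of fat precursors, was at 31.2 and 98.0, under the minimum. Of 13 restraining genes, 11 above background, *Nr2f2* and *Klf2* were higher in CC, *Ddit3* was higher in SFZ cells and 8 passed in neither direction. *Nr2f2* passed on 1 of 6 probe sets, and *Klf2* had a ratio of 2.18. The preadipocyte factor *Dlk1* was at 3053 and 2807.

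Of 18 genes measured for the making and storing of triglyceride, enzymes with a few of their regulators, 2 were higher in CC and 0 were higher in SFZ cells. The shares over all genes were 6.17% and 1.37%. *Scd1*, which desaturates stearate, was at 2431 in SFZ cells against 6265 in CC, a ratio of 2.58. *Gpam*, the first acyltransferase of glycerolipid synthesis, was at 414 and 882. Its ratio of 2.13 was near the threshold, and it passed on 1 of 2 probe sets. Fatty acid synthase (*Fasn*) was at 497 and 857, and *Dgat2*, which adds the last acyl chain, at 593 and 381. Of 8 genes of lipolysis, hormone-sensitive lipase (*Lipe*), at 41.5 and 134, and monoglyceride lipase (*Mgll*), at 66.9 and 161, were higher in CC. *Lipe* passed on 1 of 2 probe sets and *Mgll* on 3 of 4. *Pnpla2*, the first lipase of the droplet, was at 104 and 163 and did not pass. Among 18 other genes of fatty acid carriage and uptake, 12 above background, none was higher in either culture. Their median log2 ratio was -0.24. Of 11 oxidation genes, *Acadm*, at 512 and 1544, and *Acadl*, at 638 and 1281, were higher in CC. *Acadl* passed on 1 of 2 probe sets, with a ratio of 2.009.

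Of 12 genes of brown fat and brown-like (beige) fat, 2 were higher in CC. Over all genes, 6.17% were higher in CC and 1.37% in SFZ cells. *Tmem26* was at 13.2 and 221, at least 7.83-fold higher, and *Dio2*, which activates thyroid hormone, was at 24.6 and 120, at least 4.26-fold higher. *Dio2* passed on 1 of 3 probe sets. The uncoupling protein gene *Ucp1*, which defines brown fat, was under background on both arrays at 1.22 and 3.29. Of 13 markers of fat precursors and stromal cells, 4 were higher in CC and 0 were higher in SFZ cells. *Pdgfra* was at 91.0 and 911, a ratio of 10.0, on 1 of 3 probe sets. *Thy1* was at 46.3 and 366, a ratio of 7.90. *Cd34* was at 35.8 and 106, and *Fap* at 111 and 297. *Dpp4* and *Pi16* were under background on both arrays.

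**Figure D3:**
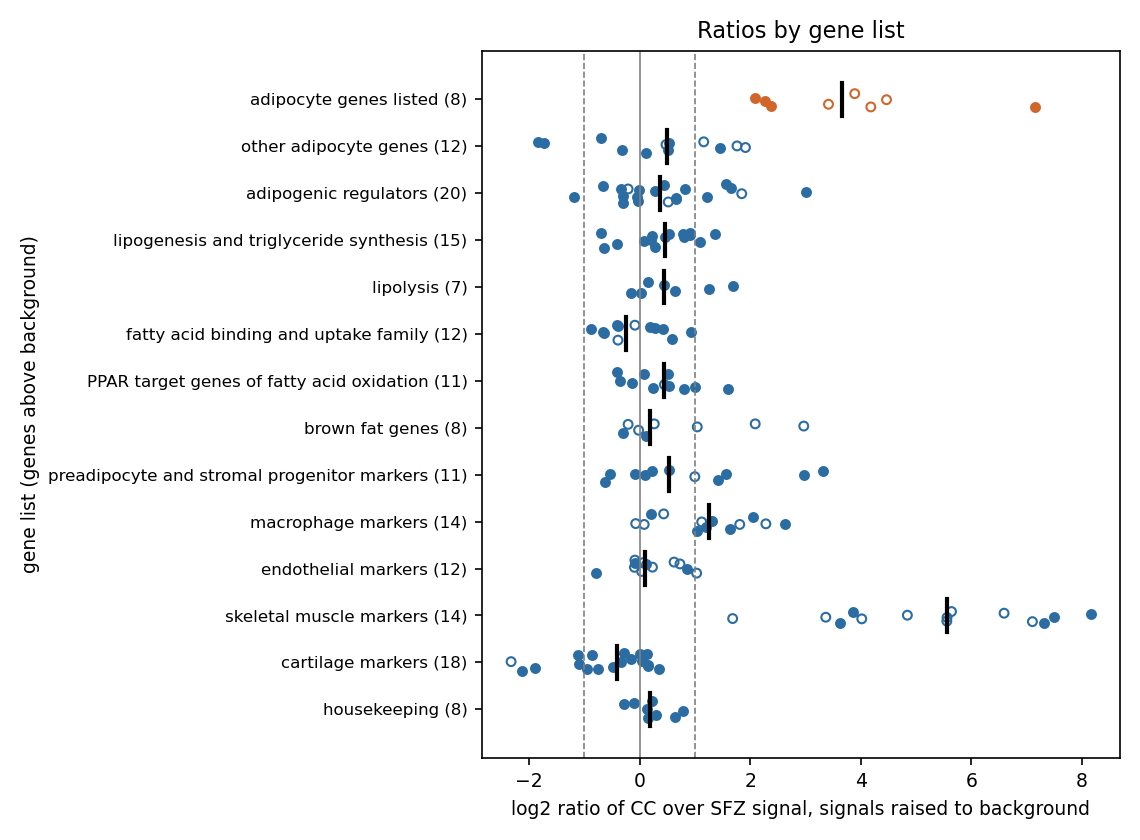
Log2 ratios of CC over SFZ signals, 1 array each, by gene list, for genes above background on at least 1 array (their number in parentheses). Signals were raised to background, open points are bounds, bars are medians, and dashed lines mark a ratio of 2 either way. The median was 3.65 for the listed genes, 0.50 for other adipocyte genes, 1.25 for macrophage markers, 0.09 for endothelial markers and 5.56 for skeletal muscle markers.

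Markers of skeletal muscle and, in part, of macrophages were also higher in CC, while no endothelial marker passed. The shares over all genes were 6.17% higher in CC and 1.37% higher in SFZ cells. Of 17 skeletal muscle markers, 13 were higher in CC, with *Actc1* at 28.7 and 8228 and *Myh3*, an embryonic myosin heavy chain gene, at 11.03 and 3881. Their signals summed to 326 in SFZ cells against 32567 in CC. A sum of this kind is led by its brightest probe sets and does not measure how many cells of a type were present. The muscle regulator *Myog* was at 14.7 and 2721, at least 96.5-fold higher in CC, and *Myod1* at 13.7 and 457, at least 16.2-fold higher. *Myod1* passed on 1 of 2 probe sets. The precursor genes *Myf5* and *Pax7*, and *Myf6*, were under background on both arrays. Of 20 macrophage markers, 7 were higher in CC and 0 were higher in SFZ cells, and the sum was 822 and 3030. *Lyz2*, encoding lysozyme, was at 232 and 1432, *Mrc1*, the mannose receptor gene, at 26.02 and 137, *Cd14* at 55.1 and 228 and *Msr1* at 33.4 and 103. *Msr1* passed on 1 of 4 probe sets and *Csf1r* on 1 of 3. The defining genes *Csf1r* and *Adgre1* were at 127 and 109 in CC, while *Cx3cr1*, *Itgam*, *Cd163* and *Marco* were under background on both arrays. Of 16 endothelial markers, the 12 above background had a median log2 ratio of 0.09. Many of these ratios were lower bounds, set by SFZ signals under background, so the median is a bound too. The sum over all 16 was 549 and 734. *Cldn5*, at 8.89 and 57.6, had a bound of 2.04 but was under the minimum signal in CC. *Pecam1*, *Kdr* and *Cdh5* were at 26.4, 26.6 and 46.8 in CC, and *Tek*, *Tie1* and *Vwf* were under background. None of 10 epidermal markers passed, and the keratin genes *Krt14* and *Krt1* were under background. None of the 8 housekeeping genes passed. The part of these cells in the signals of the listed genes was not tested.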

How the data were processed

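RNA of SFZ cells and CC was hybridised to 1 Affymetrix Mouse Genome array each. The authors deposited MAS5 signals, linear intensities per probe set. MAS5 is credited to the submitters' processing notes. Its version and the level it scales to are not given, and neither are present or absent calls. Signals were used as deposited, and 64 control probe sets were left out. Of 45037 others, 34945 were named for 1 gene by the platform annotation, 34741 of them matched RefSeq by Entrez identifier and 0 symbols changed. The 932 with several symbols and the 9160 with none in that annotation were kept out of gene counts. The array names no genome build, so only RefSeq promoter windows carry coordinates.

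Median signals were 28.1 (SFZ cells) and 32.0 (CC), and 50.0% and 53.9% of probe sets were above background. The SD of log2 ratios, which holds noise and true differences, was 0.72 at mean signals from 100 to 1000. The number of arrays limits the precision. Each gene of a list was shown by its brightest probe set (mean log2 signal of both arrays), and passed where any of its probe sets passed. The rule for named genes took the listed genes, up to 4 passing genes per list, defining genes under background and the 5 genes nearest to *Fabp4* in signal. The last are not reported, because levels of different probe sets are not comparable. Members and lists were chosen with earlier results of these data known. Further genes named beside these (*Cebpb*, *Rxra*, *Zfp423*, *Dlk1*, *Fasn*, *Dgat2*, *Pnpla2*, *Plin3*, *Fabp3*, *Slc2a4*, *Retn*, *Csf1r*, *Adgre1*, *Pecam1*, *Kdr*, *Cdh5*, *Cldn5*, *Myog*, *Myod1*, *Col2a1*, *Acan*, *Lepr* and *Alpl*) were picked after their values were seen. The counting was tested on simulated data, with changes placed in bright probe sets only and noise below the spread of ratios seen here. That check does not cover dim signals. Alternatives were median scaling, quantile normalization, other treatments of low signals, other thresholds and other rules for probe sets. Python 3.11.15, numpy 2.4.6, pandas 2.3.3 and matplotlib 3.10.9 were used.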

Additional observations from a re-analysis of the deposited data

How the results depend on the processing

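No paired analysis was possible because each cell type had 1 array, and leaving out a replicate was not possible either. The 8 listed genes higher in CC stayed 8 under every alternative run except that in which every probe set had to pass, which left 6, without *Fabp4* and *Cd36*. Their 12 probe sets ranged from 12 to 15, and the median log2 ratio of 3.65 from 2.38 with 64 added to both signals to 4.20 with signals as deposited. All 32 single log2 ratios of these genes, from 1.90 to 7.14, stayed over a ratio of 2.

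The 2 other adipocyte genes higher in CC became 1 with median scaling, quantile normalization, 64 added, a ratio over 3, every probe set passing or the median over probe sets. They became 4 at a signal over 50, 0 at a signal over 200 and 10 with no minimum signal. A looser or stricter threshold moves such a count by its construction. Of the 2 genes, *Gpd1* lay near the minimum signal, at 106 in CC on the probe set that passed, and *Plin4* was at 120. The cause of the move under both scalings was not tested. The median log2 CC/SFZ ratio of probe sets exceeding background in both cultures was 0.15, against -0.03 after median scaling and -0.08 after quantile normalization. Ratios of *Pparg*, *Cebpa*, *Cd36* and *Adipoq* are limited by their SFZ signals under background. Counts of the remaining gene lists were not rerun under these alternatives.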

Other observations

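Genes of marrow stroma and bone were partly higher in CC. Of 8 measured, 4 were higher in CC and 0 were higher in SFZ cells, against 6.17% and 1.37% of all genes. The chemokine gene *Cxcl12* was at 159 in SFZ cells against 3600 in CC, a ratio of 22.7. *Ibsp*, encoding bone sialoprotein, was at 15.5 and 375, at least 13.3-fold higher, and the stem cell factor gene *Kitl* was at 31.4 and 390, a ratio of 12.4. *Cxcl12* passed on 2 of 3 probe sets and *Kitl* on 2 of 4. *Ebf3* was at 52.7 and 127, a ratio of 2.40. The leptin receptor gene *Lepr*, a marker of marrow stroma, was at 34.1 in SFZ cells and under background in CC, and *Alpl* was at 56.3 and 60.8. The part of marrow or bone cells in the signals of the listed genes was not tested.

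Of 10 blood cell markers, 4 were higher in CC, against 6.17% of all genes. The neutrophil genes *S100a8*, at 1.45 and 373, and *S100a9*, at 2.22 and 204, were at least 13.2-fold and 7.24-fold higher. *Pf4*, at 88.4 and 322, and *Ppbp*, at 4.43 and 130, listed here as platelet markers, also passed. Which cells gave these signals was not tested. *Cd3e* and *Cd79a*, which define lymphocytes, and *Alas2* of red cells were under background on both arrays.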
